A study of Homo sapiens with 3 samples.

Results

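Shared fragments are restriction fragments that were listed as interacting with many promoters at once in the promoter capture Hi-C (PCHi-C) maps of cardiomyocytes differentiated from a human embryonic stem cell line (hESC-CMs). The fragments were chosen by their number of listed contacts: a fragment was taken when it stood, in the union of the 3 replicate maps, beside at least 8 different promoter fragments on its own chromosome, and 1042 of 111850 interacting fragments (0.932%) met this rule. The histone gene cluster of chromosome 6 and the stretch of chromosome 14 around MYH6 and MYH7 were left out by the rule, and 73 further fragments with 8 or more promoter fragments lay there. The rule counted listed contacts, so the number of promoters, the replicates and the scores given here describe the choice and were not tested. All coordinates are on GRCh37, the build named in the labels.

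The study captured promoters from Hi-C libraries of cardiomyocytes made from WA09 (H9), an established human embryonic stem cell line, after lactate enrichment. The deposited series holds 1 condition, labelled hESC-CM, with 3 biological replicates and no untreated or other cell type to compare with. The paper also compared its interactions with earlier PCHi-C data of undifferentiated WA09 cells, which were not used here. Each deposited map lists a promoter fragment, an interacting fragment and the CHiCAGO score of the pair, which rises as the read pairs exceed what the distance and the 2 fragments would give by chance. Listed scores start at 5, and the replicates held 112473, 109731 and 110740 pairs. The deposited maps give no read counts, so the depth behind a contact in a replicate could not be read from them. The paper lists read counts averaged over the replicates for its own interactions, and these were not used here. Nothing in the labels says that the replicates came from separate differentiations, so their spread may be technical. The maps hold contacts and no expression, so the cell type could not be checked against marker genes here. The paper reports a purity check by flow cytometry and quantitative PCR, with myosin heavy chain and TNNT2 as markers.

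In Hi-C, neighbouring pieces of chromatin are crosslinked, cut (here with HindIII, which cuts AAGCTT) and ligated, and PCHi-C then pulls down only the ligated pieces that hold a promoter. A fragment at the far end of such a pair may hold an enhancer, another promoter, a boundary element bound by CTCF or none of these, and the assay alone does not say which. Genes of a family often stand side by side in clusters, such as the protocadherin, keratin, HOX and olfactory receptor genes, and a fragment that contacts a cluster is listed with many promoters together.

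Short fragments can carry a long list of promoters, and 3 of them are printed whole, on the plus strand, with the letters left from the HindIII sites at both ends in capitals. The 165-bp fragment chr1:153325783-153325947 was listed with 18 promoter fragments of the S100 region. The 186-bp fragment chr9:104481828-104482013, in an intron of GRIN3A, was listed with 11 promoter fragments in and around an olfactory receptor cluster. The 266-bp fragment chr1:144014968-144015233 was listed with 31 promoter fragments at a median distance of 62270 kb.
S100 region fragment, chr1:153325783-153325947: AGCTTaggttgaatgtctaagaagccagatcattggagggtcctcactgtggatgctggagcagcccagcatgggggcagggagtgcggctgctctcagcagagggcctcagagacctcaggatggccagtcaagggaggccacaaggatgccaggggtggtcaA
GRIN3A intron fragment, chr9:104481828-104482013: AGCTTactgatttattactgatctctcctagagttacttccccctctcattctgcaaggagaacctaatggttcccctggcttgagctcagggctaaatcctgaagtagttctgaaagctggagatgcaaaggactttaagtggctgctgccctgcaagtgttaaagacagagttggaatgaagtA
Chromosome 1 fragment, chr1:144014968-144015233: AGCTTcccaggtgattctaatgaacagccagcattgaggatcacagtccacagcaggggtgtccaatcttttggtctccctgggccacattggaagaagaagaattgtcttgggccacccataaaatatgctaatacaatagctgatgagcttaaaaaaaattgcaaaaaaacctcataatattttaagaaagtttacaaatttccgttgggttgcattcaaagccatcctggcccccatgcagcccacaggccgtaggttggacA

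These 3 fragments differed in base composition. Their GC contents were 59.4%, 45.2% and 44%, against a median of 44.1% over the 1042 shared fragments and 40.4% over all interacting fragments. None of them had a near-identical stretch (95% identity over at least 500 bp) elsewhere, which a fragment shorter than 500 bp cannot have by this definition.

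CTCF is the protein that anchors many chromatin loops, and the core of its binding motif, 12 letters of which 8 are fixed, was searched on both strands in the 2 kb around each fragment's midpoint. Among the shared fragments 85 of 1042 windows (8.16%, 95% Wilson interval 6.65 to 9.98) held a match, and among all interacting fragments 7385 of 111850 (6.60%). Among fragments with 2 to 7 promoter fragments the share was 7.76%. The fixed letters are mostly G and C, and the shared fragments had the higher median GC content (44.1% against 40.4%). The part of base composition was not tested, nor was the share of windows that would match by chance computed. A match is a run of letters and not a bound site. Matches were found for 3 of the fragments described by name and are printed here in the direction of the motif with the matched letters in capitals. The match lay inside the fragment only at chr1:144008808-144014967.
Chromosome 1 fragment, chr1:144011390-144011439, minus strand: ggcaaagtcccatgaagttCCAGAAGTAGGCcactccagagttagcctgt
Chromosome 16 fragment, chr16:31878170-31878219, minus strand: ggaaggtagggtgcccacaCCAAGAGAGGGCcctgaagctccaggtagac
S100 region fragment, chr1:153325072-153325121, plus strand: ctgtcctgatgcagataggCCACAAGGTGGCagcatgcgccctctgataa

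The number of promoter fragments per interacting fragment fell steeply. Most interacting fragments were listed with 1 promoter fragment, 615 with exactly 7 and 400 with exactly 8, the lowest number that the rule admits. The median over the shared fragments was 9 and the highest was 55. The values just inside and just outside the rule are given without a test. With exactly 8 promoter fragments, 35.5% of the contacts were called in all 3 replicates, the median distance was 640.5 kb and the median GC content was 44.8%, and with exactly 7 the values were 36.6%, 639.6 kb and 43.5%.

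**Figure D1:**
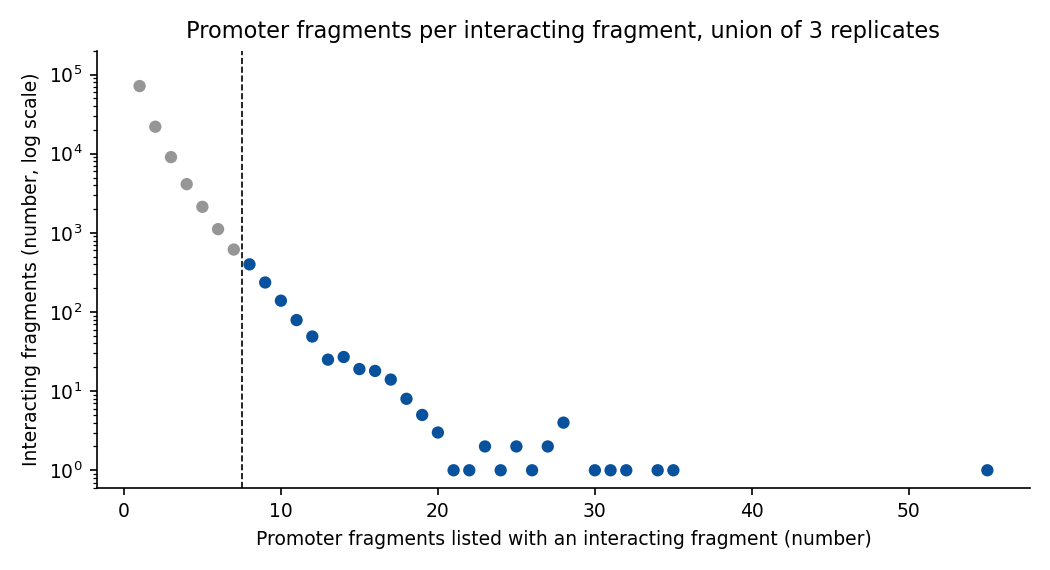
Number of interacting fragments (log scale) against the number of promoter fragments listed with them, in the union of the 3 replicates and outside the left-out stretches. Blue points, right of the dashed line, are the shared fragments, and the count falls smoothly from 615 at 7 to 400 at 8, with 1 fragment far out at 55.

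Shared fragments were involved in 10556 contacts, 5.47% of the 193054 same-chromosome contacts, with 3340 different promoter fragments. Of these contacts 36.6% (3866) were called in all 3 replicates, beside 24.5% of all same-chromosome contacts, and 42.7% were called in 1 replicate only, beside 57.2%. The median distance was 695.3 kb (715.7 kb over all contacts), but it was 341.1 kb when the rule was applied to the merged map and 2268 kb with scores of at least 7. Contacts called in all 3 replicates spanned a median of 410.9 kb, and contacts called in 1 replicate spanned 1200 kb. In all 3 replicates together a shared fragment held a median of 3 contacts, with a highest value of 19, and 59 of the 1042 held none.

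All replicates fed the list. Replicates 1, 2 and 3 called 65.5%, 63.3% and 65.2% of the contacts, and each alone gave a shared fragment a median of 6 promoter fragments. Within a single map 301, 279 and 293 of the shared fragments reached 8 promoters, 131 did so in each of the 3 maps, and 549 did so in none and met the rule only in the union. On the merged reads of the 3 replicates, a map the authors also deposited, 464 of the 1042 reached 8. With scores of at least 7, 243 fragments met the rule, all of them among the 1042.

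The number of promoters was then read in 1 replicate for fragments chosen anew from the other 2. Fragments with 8 or more promoter fragments in the union of replicates 2 and 3 (641) had a median of 7 in replicate 1, those from replicates 1 and 3 (676) had a median of 7 in replicate 2, and those from replicates 1 and 2 (668) had a median of 7 in replicate 3. Between 90.7% and 93.6% of them had at least 4 promoter fragments in the replicate left out, and 2, 0 and 1 of them had none. Fragments with 4 to 7 promoters in the other replicates had a median of 3 in the one left out, and fragments with 1 had a median of 0. The order of the classes was therefore the same in each replicate that had not been used to form them.

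**Figure D2:**
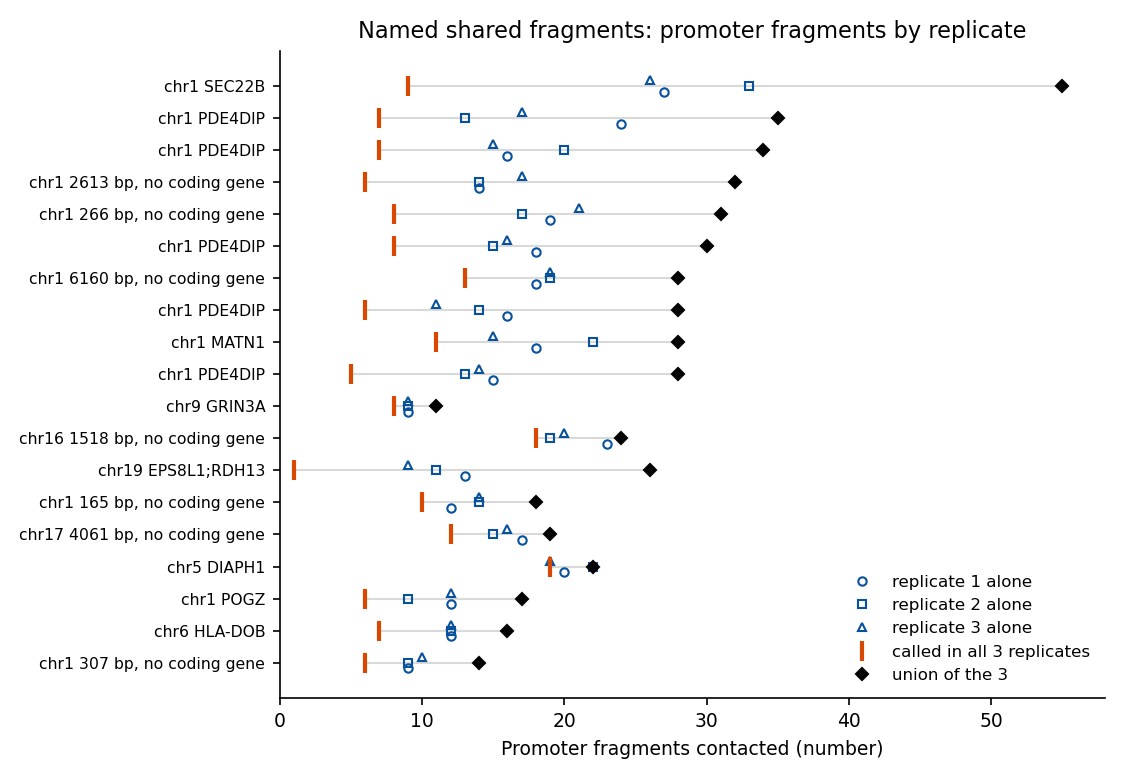
Promoter fragments contacted by 19 named shared fragments in each replicate alone (open symbols), in all 3 replicates (orange bar) and in their union (black diamond), with the host gene or the fragment length as the name. The DIAPH1 and chromosome 16 fragments have orange bars at 19 and 18, close to the union, while the SEC22B fragment has 9 in all 3 replicates against 55 in the union.

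Shared fragments lay among promoters. A median of 28 promoter fragments (those listed in any replicate) stood within 1 Mb of a shared fragment, beside 13 for all interacting fragments, and a shared fragment contacted a median of 17.1% of them, beside 4.55%. Many were promoter fragments themselves, 227 of 1042 (21.8%, Wilson interval 19.4 to 24.4), beside 7.55% of all interacting fragments. Both traits were also seen just outside the rule. Fragments with exactly 7 promoter fragments had a median of 21 within 1 Mb, and 18.4% were promoter fragments. With exactly 8 the values were 24 and 23.8%. Exons of protein-coding genes were touched by 41.8% of the shared fragments and 25.9% of all, and 22.9% and 28.8% were intergenic. Their length, a median of 2002 bp, was close to the 2081 bp of all interacting fragments.

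They were also clustered along the chromosomes. When neighbours at most 500 kb apart were joined, the 1042 fragments formed 252 loci, of which 115 held 1 fragment and 24 held 10 or more. The 10 loci with the most fragments held 302 of them (29.0%). In all, 474 shared fragments touched another one, in 166 runs of up to 10, and a touching pair had a median of 63.6% of its promoter fragments in common, so that neighbours are not independent examples. Chromosome 1 held 212 shared fragments, chromosome 19 held the highest share of its interacting fragments (88, 4.04%) and chromosome 18 the lowest (2, 0.0855%).

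By distance the fragments fell into 3 kinds. For 312 fragments every promoter listed lay within 1 Mb, at a median distance of 303.4 kb, with 43 promoter fragments within 1 Mb and 42.9% of the contacts called in all 3 replicates. For 198 fragments in 42 loci no promoter listed lay within 1 Mb. Their median distance was 2910 kb, only 12 promoter fragments stood within 1 Mb, and 37.5% of their contacts were called in all 3 replicates. Median GC content was 39.1% in the latter and 46.0% in the former, 17.7% and 39.7% touched exons, and the contacts called in all 3 replicates had median scores of 13.9 and 8.21. The remaining 532 had promoters on both sides of the 1 Mb mark.

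**Figure D3:**
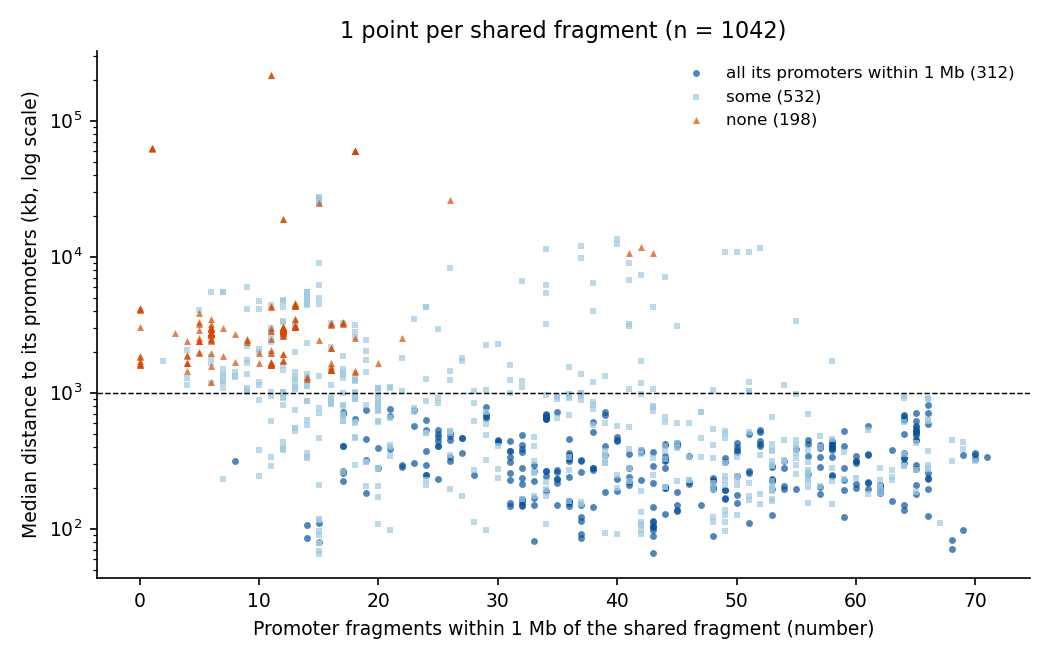
Each point is 1 shared fragment, placed by the number of promoter fragments within 1 Mb of it and by the median distance to the promoters it was listed with (log scale, dashed line at 1 Mb). Fragments with all promoters within 1 Mb (blue) stand mostly where promoters are dense, and most of those with none within 1 Mb (orange triangles) stand where 20 or fewer lie near.

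The fragment with the most contacts in all 3 replicates lay over exons of DIAPH1, which encodes a formin that nucleates actin filaments, at chr5:140935964-140942566. This fragment was itself a promoter fragment and held a start of DIAPH1. It contacted 20, 22 and 19 promoter fragments in replicates 1, 2 and 3, and 19 in all 3, out of 58 within 1 Mb, every one of them on its lower-coordinate side. Of the 19, 17 hold the start of a clustered protocadherin gene, a family of adhesion proteins best known from neurons. The PCDHB8 promoter fragment had scores of 25.89, 37.22 and 35.29, that of PCDHB5 19.16, 34.23 and 23.97, and that of PCDHB16 22.12, 21.43 and 18.58. The lowest of the 19, at PCDHGA12, was 5.14, 6.16 and 5.84, so that PCDHB8 stood above it in every replicate. The surrounding locus (chr5:140157009-140965916) held 23 shared fragments with 265 contacts, 108 of them in all 3 replicates.

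Next came an intergenic fragment of 1518 bp on chromosome 16, chr16:31878285-31879802. It contacted 23, 19 and 20 promoter fragments in replicates 1, 2 and 3, 18 in all 3, and 23 of the 29 within 1 Mb. Its promoters, all on the lower-coordinate side between 340.2 and 1106 kb away, belong to unrelated housekeeping and tissue genes. ARMC5 had scores of 32.14, 24.01 and 24.49. STX4, a membrane fusion protein, had 18.89, 16.51 and 18.19. COX6A2, the heart and skeletal muscle form of a cytochrome c oxidase subunit, had 9.29, 11.04 and 9.39. The locus around it (chr16:30003550-31897380) held 33 shared fragments and 73 promoter fragments.

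On chromosome 17 keratin (KRT) genes, which encode the intermediate filaments of epithelia and hair, stand in a cluster with keratin-associated protein (KRTAP) genes. This cluster met an intergenic fragment of 4061 bp at chr17:39064987-39069047. It reached 17, 15 and 16 promoter fragments and had 12 contacts common to the 3 replicates. The 19 of the union all lay between 228.7 and 680.3 kb on its higher-coordinate side. KRTAP17-1 had the highest scores, 17.43, 14.68 and 13.59, followed by KRT36 with 11.23, 10.25 and 11.05 and the fragment of KRT15 and KRT19 with 8.22, 10.5 and 10.52. In the same locus the promoter fragments of KRT20 and KRT23 were contacted in all 3 replicates by 11 and 8 of the 23 shared fragments.

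The 165-bp fragment on chromosome 1, printed above, contacted 12, 14 and 14 promoter fragments, 10 in all 3 replicates, and all 18 of the union lay between 106.8 and 639.5 kb away. INTS3, a subunit of the Integrator complex, had scores of 21.87, 24.48 and 19.94. S100A2, a calcium-binding protein, had 7.69, 11.35 and 9.19, and NPR1, the receptor for atrial natriuretic peptide, had 7.82, 5.35 and 7.6. Its locus (23 fragments, 47.3% of 273 contacts in all 3 replicates) contacted the RAB13 and RPS27 promoter fragment from 13 shared fragments in all 3 replicates.

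Further along chromosome 1 were the loci of POGZ and BCAN. The POGZ exon fragment chr1:151426874-151427824 contacted 12, 9 and 12 promoters, 6 in all 3 replicates, among them CELF3 (11.26, 11.76 and 9.47), an RNA-binding protein, and CGN (5.91, 6.61 and 7.59), a tight junction protein. The 307-bp fragment chr1:156650016-156650322 contacted 9, 9 and 10, and 6 in all 3, the highest score being that of the ISG20L2 and METTL25B promoter fragment (15.16, 13.65 and 12.57). Counts in the single replicates of these fragments differed by at most 3.

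In the major histocompatibility complex of chromosome 6, whose genes present antigens, the leading fragment lay over exons of HLA-DOB (chr6:32780977-32788956). It was itself a promoter fragment and contacted 12 promoter fragments in each replicate, 7 of them in all 3. HLA-DOA had scores of 13.75, 23.55 and 11.69, HLA-DQA1 13.96, 13.86 and 10.81, and EHMT2, a histone H3 lysine 9 methyltransferase 932 kb away, 10.1, 11.44 and 11.27. Within the locus the EHMT2 promoter fragment was contacted in all 3 replicates by 9 of the 20 shared fragments.

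The leading fragment of chromosome 19 differed from these. It was a promoter fragment over starts and exons of EPS8L1 and RDH13 (chr19:55578961-55584387). It was listed with 26 promoter fragments, 13, 11 and 9 in the single replicates. Only 1 contact, with the fragment of ETHE1 and ZNF575 at 11550 kb, was called in all 3 (6.67, 7.16 and 6.35), and 20 were called in 1 replicate. Its locus of 26 fragments had 27.2% of its contacts in all 3 replicates, and the RPL28 and TMEM238 promoter fragment, a ribosomal protein gene and its neighbour, was contacted in all 3 by 12 of them. The nearby locus chr19:54657232-54973157 was more extreme, with 6 of 128 contacts (4.69%) in all 3 replicates and a median distance of 10570 kb. That locus is given because of these values.

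**Figure D4:**
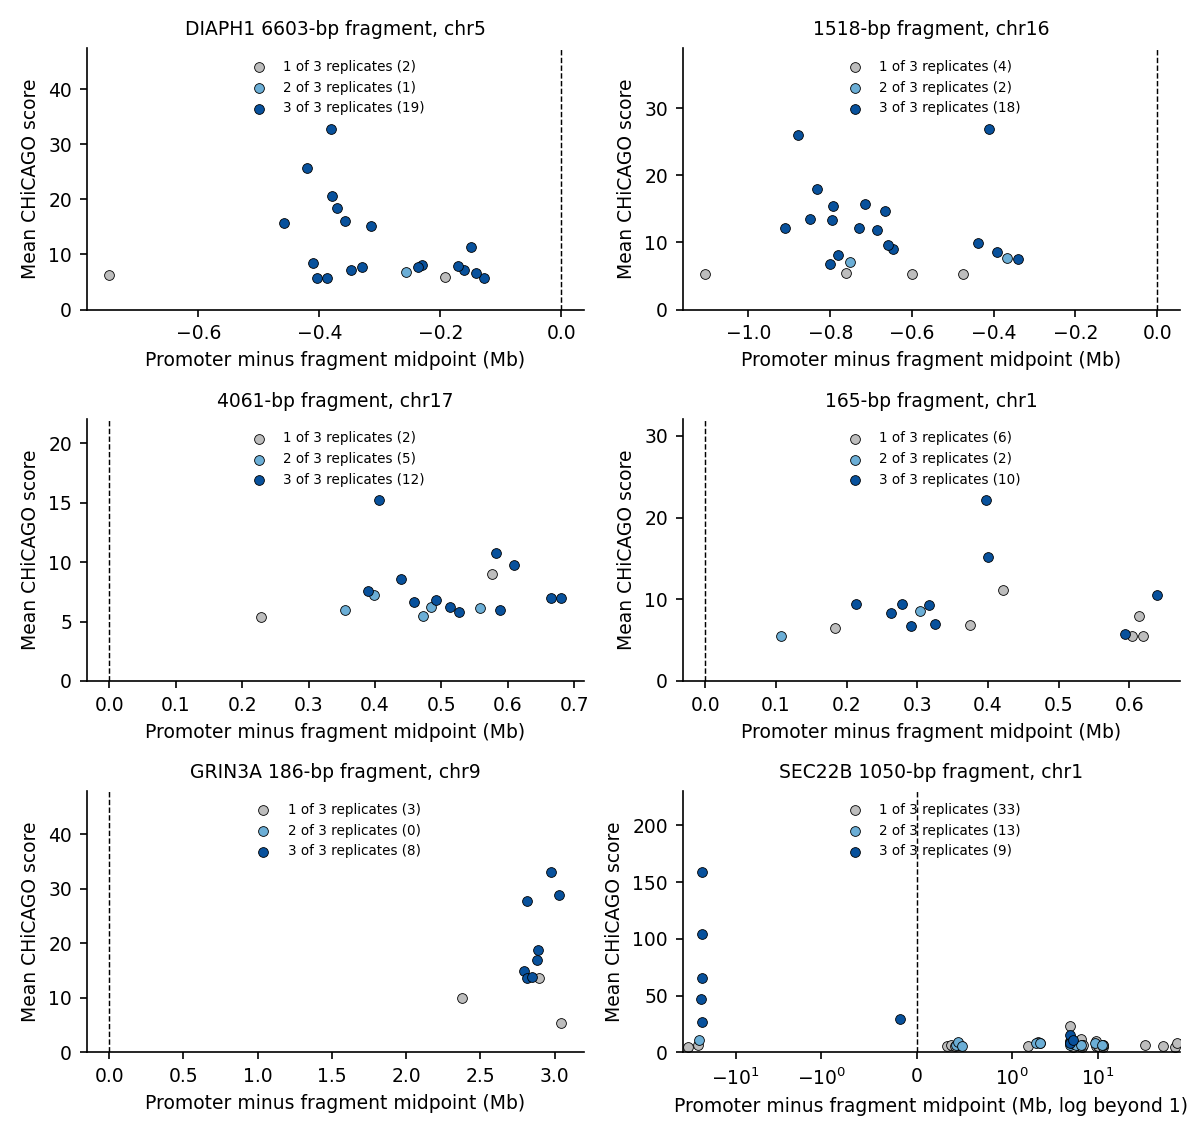
Mean CHiCAGO score of each contact of 6 shared fragments against the signed distance from the fragment to the promoter (Mb, 0 at the dashed line, logarithmic beyond 1 Mb for SEC22B), coloured by the number of replicates that called it. Promoters of the DIAPH1, chromosome 16, chromosome 17, chromosome 1 (165 bp) and GRIN3A fragments all lie on 1 side, and only the SEC22B fragment has mean scores above 100, the highest with REG4 at 24760 kb.

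The locus with the most shared fragments was a case of long distance. It covered 525 kb at GRIN3A, which encodes a subunit of the NMDA receptor, PPP3R2 and RNF20 (chr9:104219159-104744246), and held 65 shared fragments. These contacted 15 promoter fragments in 571 pairs, 289 of them (50.6%) in all 3 replicates, at a median distance of 2935 kb. The main partners were the olfactory receptor genes of the OR13 family and their neighbour NIPSNAP3A, on the higher-coordinate side. OR13D1 was contacted by 63 of the 65 fragments, by 58 in all 3 replicates, with a median mean score of 20.0, OR13C3 by 64 and 45, NIPSNAP3A by 62 and 44, and OR13C5 by 62 and 42. None of the 12 promoter fragments within 1 Mb of the 186-bp fragment printed above was contacted by it, while it contacted 9 distant promoters in each replicate, 8 of them in all 3. Its scores were 26.56, 35.87 and 36.9 with OR13D1 and 32.42, 22.87 and 27.82 with OR13C3.

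The same pair of regions was also listed from the other end. Where both ends are promoter fragments, a pair can be listed in both orders, so such a listing is not a separate observation. At chr9:107297759-107524884 8 shared fragments, with exons of OR13C3, OR13D1 and NIPSNAP3A, contacted 15 promoter fragments in 75 pairs, 33 of them in all 3 replicates, at a median of 3214 kb. Their partners in all 3 replicates included GRIN3A, PPP3R2, RNF20 and BAAT. Only 1 of the 65 fragments had a near-identical stretch elsewhere, none of them was within 1 Mb of an assembly gap (a run of at least 50 kb of unknown bases), and their median GC content was 37.9%.

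The fragment with the most promoters of all lay near the centromere of chromosome 1, over an exon of SEC22B (chr1:145115011-145116060), which encodes a SNARE protein of transport between the endoplasmic reticulum and the Golgi. It was listed with 55 promoter fragments, 27, 33 and 26 in the single replicates, of which 9 were called in all 3 and 33 in 1. Among the 9, REG4 had 183.6, 139.57 and 152.66, and the PHGDH fragment, for the enzyme that starts serine synthesis, 75.34, 47.71 and 73.36. These lay 24800 to 24900 kb away, on the other arm. The 5 fragments named over PDE4DIP, an anchoring protein of the Golgi and centrosome, were listed with 28 to 35 promoter fragments, of which 5 to 8 were called in all 3 replicates.

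The whole locus, chr1:144870825-145602802, held 49 shared fragments with 192 promoter fragments. Of 790 contacts 264 (33.4%) were called in all 3 replicates and 442 in 1. ADAM30 and REG4 were each contacted by 34 of the 49 fragments in all 3 replicates, as was the fragment of PHGDH and ZNF697. The mean score of ADAM30 over the replicates reached 215. All 49 fragments lay within 1 Mb of an assembly gap, as did 172 of the 1042 shared fragments (16.5%) and 8.83% of all interacting fragments. Whether the gaps had a part in these contacts was not tested.

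Apart from this locus, 26 shared fragments had a median distance over 10 Mb. The sequence of each shared fragment was then set against the rest of the genome. Near-identical sequence was found for 15 of the 1042 shared fragments (1.44%, Wilson interval 0.874 to 2.36), beside 1.25% of all interacting fragments, and for 6 of the 60 with a median distance over 10 Mb, the chromosome 1 locus included. In 4 of these 6 a copy on the same chromosome lay within 1 Mb of the median promoter contacted. These 4 were chosen for this.

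The clearest was on chromosome 17. The fragments chr17:62916905-62919105 and chr17:62919719-62922630 contacted MAPT, which encodes tau, KANSL1, WNT3 and their neighbours from 18970 and 19000 kb away. The former did so in 11, 10 and 12 cases per replicate, 10 of them in all 3. Their copies, 599 bp at 96.8% identity and 2880 bp at 97.5%, lay at chr17:44368950-44369548 and chr17:44365453-44368317, a median of 583 and 637.1 kb from the same promoters. On chromosome 1 the fragment chr1:234916041-234921527 was listed with 20 promoters 217400 kb away, among them ATP13A2, PADI2 and PADI3, and its copy of 2397 bp at 98.7% identity (chr1:17123271-17125658) lay a median of 572.9 kb from them. The fragment chr1:144015234-144021398, with 25 promoters 62650 kb away, had a copy of 1905 bp at 98.3% identity at chr1:206482222-206484111, 587.8 kb from them. Which of the copies the reads came from cannot be told apart here.

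The 266-bp fragment printed above touches chr1:144015234-144021398, and on its other side it touches chr1:144008808-144014967. Neither of these neighbours had a near-identical stretch by this definition, which the 266-bp fragment is too short to have. Whether the near-identical sequence of the adjoining fragment had a part in their contacts was not tested. The fragment chr1:144008808-144014967 contacted 18, 19 and 19 promoters in the single replicates, 13 in all 3, at a median of 62650 kb. It contacted none within 1 Mb, where 1 promoter fragment stood. IKBKE, a kinase of interferon signalling, had scores of 148.91, 248.99 and 26.08, and AVPR1B, a vasopressin receptor, had 21.38, 20.01 and 26.09. The IKBKE score thus varied widely between replicates and the AVPR1B score little. Of 6 adjoining fragments at chr1:85977822-86005632, about 59590 kb from their promoters and far from a gap, none had a copy at 90% identity. They had 15 of 74 contacts in all 3 replicates, with ANKRD35, HJV and PDZK1.

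Away from the centromere, the MATN1 fragment chr1:31188386-31193343 was the 1 with the most promoters. It lay over the start and exons of MATN1, a cartilage matrix protein, and contacted 18, 22 and 15 promoter fragments, 11 in all 3 replicates, at a median of 2022 kb. PTPRU, a receptor phosphatase, had scores of 27.13, 31.85 and 30.66, SDC3, a syndecan, 25.7, 26.81 and 24.7, EPB41, protein 4.1 of the membrane skeleton, 10.04, 10.52 and 16.66, and YTHDF2, a reader of methylated RNA, 10.16, 11.89 and 9.72. Of the 19 promoter fragments within 1 Mb it contacted 4.

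Some other loci are named for their values. At chr11:58274435-58281430 a fragment over OR5B21, itself a promoter fragment, contacted 18, 18 and 15 promoter fragments, 13 in all 3 replicates, among them CTNND1, MED19 and SSRP1. At chr6:114202951-114281425, over HDAC2, 12 fragments had 60 of 103 contacts (58.3%) in all 3 replicates at a median of 1648 kb. The promoter fragments of RNU6-1226P and ENSG00000216663, without a protein-coding start, were contacted in all 3 replicates by 11 of them each. The LAMA4 promoter fragments were so contacted by 10 and 6, RFPL4B by 4 and NT5DC1 by only 1. At chr5:162756784-162868793, over CCNG1, 15 fragments contacted GABRB2, PTTG1 and ATP10B from a median of 2773 kb, 63 of 150 contacts in all 3 replicates. On chromosome 10 fragments at chr10:46967018-47693902 (17, over GPRIN2 and SYT15) and chr10:51501978-51595219 (15, over MSMB, NCOA4 and TIMM23) contacted each other's genes, with 52 of 146 and 66 of 150 contacts in all 3 replicates, and all of both lay within 1 Mb of a gap.

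Promoters of clustered gene families were often among those contacted. Of all promoter fragments with a same-chromosome contact 18.1% (3340 of 18419) contacted a shared fragment and 7.88% did so in all 3 replicates. The gene lists match starts of protein-coding genes. Among promoter fragments with such a start the shares were 20.0% (2704 of 13551) and 8.75%. Among protocadherin promoter fragments 31 of 33 (93.9%) contacted a shared fragment, 25 of them in all 3 replicates. For HOX genes, which specify position along the body axis, these were 32 of 36 (88.9%) and 27. For keratin and keratin-associated protein genes they were 63 of 94 (67.0%) and 28. For genes of the epidermal differentiation cluster they were 21 of 39 (53.8%) and 7. Olfactory receptors stood at 86 of 220 (39.1%) and 33, and zinc finger genes at 118 of 351 (33.6%) and 48. Each of these families has neighbours that a single shared fragment can contact together, and the rule asked for many promoters.

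Of the families that are scattered over the genome, some stood near the level of promoter fragments with a protein-coding start (20.0%, and 8.75% in all 3 replicates). Cytosolic ribosomal protein genes stood at 17 of 81 (21.0%) and 6 in all 3 replicates. The cardiac genes stood at 16 of 91 (17.6%) and 6. Genes of the mitochondrial respiratory chain stood higher, at 28 of 98 (28.6%) and 9, not far below the zinc finger genes (33.6%). Histone genes stood at 8 of 55, but 36 of the 55 lay in the left-out stretch of chromosome 6.

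**Figure D5:**
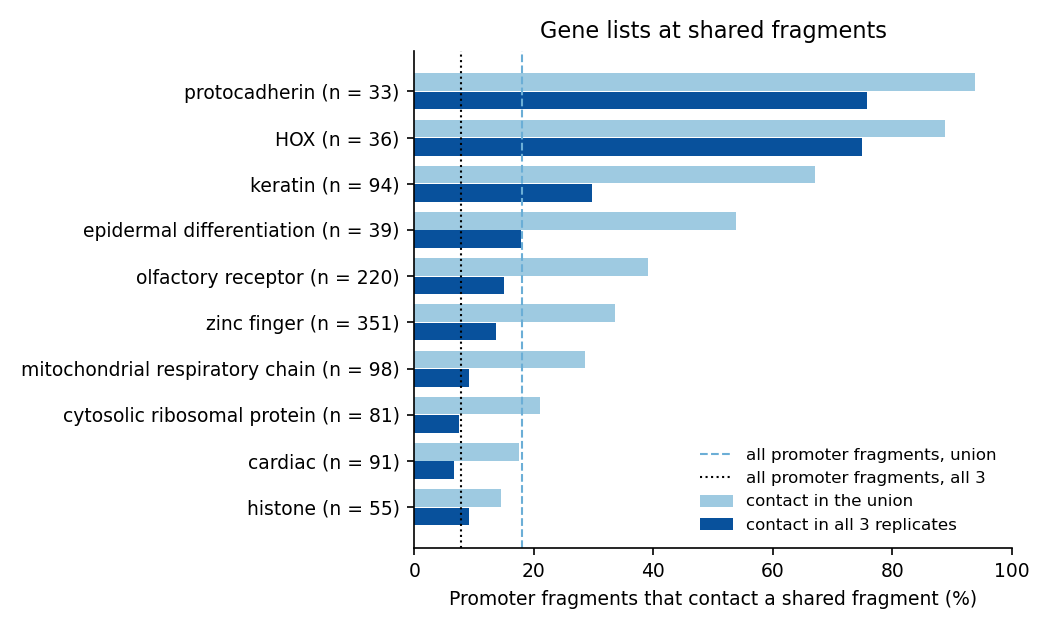
Share of each gene list's promoter fragments that contacted a shared fragment in the union of the replicates (light) and in all 3 replicates (dark), with n the promoter fragments that had any same-chromosome contact. Protocadherin and HOX lists stand far above the lines for all promoter fragments (18.1% and 7.88%), and the cardiac list stands just below them. For promoter fragments with a protein-coding start, which the lists match, the values are 20.0% and 8.75% (not drawn).

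The HOX contacts came from few places, described here because of their values. HOXA genes were contacted from 8 fragments at chr7:25892418-25936200, in a stretch without protein-coding genes, at a median of 1277 kb, with 38 of 71 contacts in all 3 replicates. The leading one, chr7:25912217-25913876, contacted 11, 13 and 14 promoter fragments, and 10 in all 3. HOXD genes were contacted from 4 fragments at chr2:178003557-178013882 at a median of 1011 kb (15 of 24 in all 3), HOXC genes from 10 fragments between chr12:54159708 and 54764824 at 219.2 kb (28 of 51), and HOXB genes from 1 fragment in SKAP1 (chr17:46229550-46229767) at 452.6 kb (6 of 7). Distances thus differed between the HOX clusters, and all 4 clusters were contacted in all 3 replicates.

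Among cardiac genes 6 had a contact with a shared fragment in all 3 replicates. HSPB7, a small heat shock protein of heart muscle, contacted the fragment chr1:16393181-16393463, in FAM131C 54.0 kb away, with scores of 12.25, 13.98 and 9.76, and that fragment contacted 10, 11 and 10 promoters. GATA4, a transcription factor of heart development, contacted 4 shared fragments 283 to 309 kb away, the highest with 10.56, 10.67 and 12.54 at chr8:11819353-11819749. MYL7, the atrial myosin light chain, contacted a fragment over AEBP1 (12.44, 8.84 and 10.25) at chr7:44139252-44145677. TNNI3, cardiac troponin I, contacted fragments over RPL28 and UBE2S (7.39, 8.1 and 6.06) and over BRSK1 (5.93, 6.96 and 6.34), and CKM, the muscle creatine kinase, contacted a fragment over CLASRP (6.02, 8.5 and 6.2). COX6A2 contacted 6 shared fragments in all 3 replicates, that of SETD1A with the highest mean score (9.02, 12.86 and 11.75). These scores lay in the range of the other short-range contacts. The cardiac share of 17.6% stood beside 18.1% for all promoter fragments and 20.0% for those with a protein-coding start. In all 3 replicates these shares were 6.59%, 7.88% and 8.75%.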

How the data were processed

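PCHi-C libraries were made from 3 replicates of hESC-CMs. The authors mapped reads to GRCh37 with HiCUP and scored pairs of HindIII fragments with CHiCAGO, and the deposited tables hold promoter fragment, interacting fragment and CHiCAGO score (no transformation, listed from 5), per replicate and for the merged replicates. The merged map, the authors' pooled value, served only as an alternative. Software versions were not given in the sources used here.

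A contact is an ordered promoter and interacting fragment pair on 1 chromosome with identical coordinates, and distance runs between midpoints. Pairs with other chromosomes were not used. Genes and exons came from GENCODE v44lift37, a promoter fragment being named by the gene starts it holds. Near-identical sequence was searched with minimap2 2.31-r1302, and tables were made with Python 3.11.15, numpy 2.4.6, pandas 2.3.3 and pysam 0.24.0. The rule was tested on simulated data. No count or group test was run, since there is 1 group and the fragments were chosen on the calls. Wilson intervals (95%) cover counting only, and neighbouring fragments share promoters. The members and gene lists were chosen with earlier results of these data known. Named are the 10 fragments with the most promoters, the leading fragments of the 10 largest loci with the genes they contacted in all 3 replicates, and the cardiac genes with a contact in all 3 replicates, and others are said to be named for their values. Alternatives were other score and promoter thresholds, each replicate left out, the merged calls, distance limits, both orders of promoter pairs, other locus gaps and other identity limits. Some genes that the rule names are not reported here.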

Additional observations from a re-analysis of the deposited data

How the results depend on the processing

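Over the alternatives, 31 of 92 values stayed within 1.5 times (counts) or within the spread between single replicates, and 61 moved, the cause of which was not tested beyond what the alternative itself changes. With a score of at least 7 or at least 10, the number of shared fragments was 243 and 77, the loci 78 and 24, the contacts in all 3 replicates 41.9% and 41%, the median distance 2268 and 3178 kb, the promoter fragments among them 16% and 10.4%, the share of promoters within 1 Mb contacted 10% and 0%, near-identical sequence 2.47% and 5.19% and GC content 42.1% and 40.4%. Without 1 replicate at a time, there were 641 to 676 shared fragments (171 to 187 loci), 18% to 22.5% were promoter fragments, 16.7% to 18.2% of promoters within 1 Mb were contacted, 1.4% to 1.8% had near-identical sequence and GC content was 43.5% to 44.1%. On the merged calls there were 591 fragments in 158 loci, of which 464 were among the 1042, with a median distance of 341.1 kb, 18.3% promoter fragments and 23.5% of promoters within 1 Mb contacted.

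With at least 6 or at least 10 promoters the fragments numbered 2771 and 406, the loci 574 and 127, the median promoters 7 and 11, the promoters contacted within 1 Mb 16.1% and 20% and GC content 43.2% and 43.8%. At 6, 18.8% were promoter fragments, and at 10, 35.7% of contacts were called in all 3 replicates and 2.22% had near-identical sequence. Contacts within 1 Mb alone gave 440 fragments, 103 loci, 43.6% of contacts in all 3 replicates, a median of 297 kb and 17.7% promoter fragments. Pairs of promoter fragments counted in both orders gave 1644 fragments, 451 loci, 34.6% in all 3 replicates, 553.9 kb, 50.4% promoter fragments and 21.4% of promoters within 1 Mb. Leaving out interacting fragments that are promoter fragments gave 37.4% in all 3 replicates and a GC content of 42.7%. Near-identical sequence was found for 2.69% at 90% identity over 500 bp and 0.672% at 95% over 1000 bp.

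No paired analysis was possible because there is 1 group. The files hold scores and no reads, so no contact below a score of 5 can be read, and a promoter not listed is not shown to lack the contact. Fragments listed with 8 promoters only in the union depend on contacts that not every replicate called.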
